A study of Homo sapiens with 6 samples.

Results

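The genes of MHC class I antigen presentation were examined in KYSE150, a human cell line established from squamous cell carcinoma of the esophagus. The set was defined by function, and it was chosen with earlier results of these data known. It held 9 genes, which were the heavy chain genes HLA-B, HLA-C, HLA-E and HLA-F, the light chain gene B2M, the transporter genes TAP1 and TAP2, the tapasin gene TAPBP, and NLRC5. They were 9 of the 67140 gene identifiers in the deposited table, and all 9 were among the 19254 that passed the filter on low counts. Other class I genes are not reported here. In short, the transcript of HLA-E fell to 55.9% of its control level, the transcript of NLRC5 rose to 151% of its control level, and the test detected no change in the other 7.

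KYSE150 cells with a control short hairpin RNA (shCtrl, 3 samples) were compared with cells carrying a hairpin against the long noncoding RNA AC007128.1 (shAC007128.1, 3 samples). Both groups were stable lines made with lentivirus and grown in RPMI medium with serum, and each group stood for 1 hairpin. Poly-A RNA was sequenced as paired-end libraries. Total counts were between 65140326 and 78610457 in shCtrl and between 55764405 and 60158244 in shAC007128.1, so every control library was deeper, and the part of depth in the results was not tested. No label says that the samples of a group came from separate cultures, so the p-values measure only the spread between these samples, which may be technical.

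AC007128.1 itself (ENSG00000229970) was counted 33 to 69 times in shCtrl and 15 to 37 times in shAC007128.1. Its ranges overlapped, and the reduction was not detected (log2 fold change -0.77, SE 0.51, edgeR adjusted p = 0.271). The authors reported a reduction by qPCR, and at counts this low the test here can miss one. All 8 squamous markers, such as KRT5 and TP63, were above 1 CPM (counts per 1000000 counts of a library, scaled as given below) in the samples. All 8 leukocyte markers stayed under 1 CPM in every sample, and CD3D and MS4A1 were among those at 0. Of the squamous markers, 5 rose and 1 fell, and their summed level was 1984 to 2011 CPM in shCtrl and 2675 to 3424 CPM in shAC007128.1. Of 5 fibroblast markers 3 were under 1 CPM in every sample, and their summed level was 14.8 to 15.8 CPM in shCtrl and 20.8 to 23.6 CPM in shAC007128.1. Of 3 endothelial markers 2 were under 1 CPM, and their sum was 2.12 to 3.11 CPM in shCtrl and 0.302 to 2.02 CPM in shAC007128.1. The part of these marker levels in the results below was not tested.

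MHC class I molecules show peptides from inside the cell to cytotoxic T cells. The proteasome cuts proteins into peptides, the TAP transporter carries them into the endoplasmic reticulum, and tapasin with other chaperones helps load them onto a heavy chain paired with the light chain β2-microglobulin. HLA-B and HLA-C are classical, highly polymorphic heavy chains, HLA-E is a less variable chain that natural killer cells read through the receptor CD94/NKG2A, and HLA-F is another nonclassical chain. NLRC5 is a transactivator that acts at class I promoters together with factors bound to their conserved upstream elements, while interferon acts through interferon regulatory factors and STAT proteins.

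The conserved upstream elements are shown first, because NLRC5 acts at class I promoters together with factors bound to them. In the RefSeq promoter table (GRCh38.p14, 250 bases before to 50 bases after a start), 7 of the 9 genes had an entry. HLA-E and NLRC5 were not matched. The windows below end in the reverse CCAAT box ATTGG, and the half-site TGACG of the cyclic AMP response element begins the windows of HLA-B and HLA-C. Capitals mark both elements, and each window is written 5′ to 3′ on the strand of its gene.
HLA-B, chr6:31357256-31357285, minus strand: TGACGcgtccccacttcccactcccATTGG
HLA-C, chr6:31272168-31272197, minus strand: TGACGcgtccccaattcccactcccATTGG
HLA-F, chr6:29723327-29723356, plus strand: taacgcggccccatttctcactcccATTGG
B2M, chr15:44711443-44711472, plus strand: gacggtccctgcgggccttgtcctgATTGG

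The half-site and the CCAAT box began 25 bases apart in HLA-B and in HLA-C, and 26 bases apart in B2M, where TGACG starts 1 base before the printed window. HLA-F held ATTGG 82 bases before its start, against 81 in HLA-B and 80 in HLA-C, but its window did not hold the exact letters TGACG. Searched on both strands, TGACG was present in 24.6% of all 35116 promoter windows and ATTGG in 34.6%. Among the members, TGACG was found in HLA-B, HLA-C, TAP2 and B2M, and ATTGG in HLA-B, HLA-C, HLA-F, TAP1 and B2M. A match describes the letters only and is not evidence that a factor binds there.

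The core of an interferon regulatory factor site, AANNGAAA or its reverse TTTCNNTT, was found in all 7 genes with an entry and in 22.8% of all windows. TAP1 has 2 windows in the table and held it in 1 of them. These sites are shown because interferon acts on class I genes through sites of this kind. Capitals mark the core.
HLA-B, chr6:31357317-31357345, minus strand: actcccctgagTTTCACTTcttctcccaa
HLA-C, chr6:31272226-31272254, minus strand: actcccctgagTTTCACTTctcccaacct
HLA-F, chr6:29723267-29723295, plus strand: tctccccagagTTTCTCTTtctctcccaa
B2M, chr15:44711370-44711398, plus strand: taagaaaaggaAACTGAAAacgggaaagt
TAP1, chr6:32853821-32853849, minus strand: caggcggccgcTTTCGATTtcgctttccc
TAP2, chr6:32838784-32838812, minus strand: cttggctggggAAGCGAAAgcgaaagctg
TAPBP, chr6:33314079-33314107, minus strand: cctttggaggaAAGTGAAAgtgaaaggag

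The core began 155, 151 and 156 bases before the start in HLA-B, HLA-C and HLA-F. The windows of B2M, TAP1, TAP2 and TAPBP held 2 overlapping cores each, and 1 of each pair is printed. They began 142 and 136 bases before the start in B2M, 134 and 128 in TAP1, 62 and 56 in TAP2, and 18 and 12 in TAPBP. A kappa B site was present in 5.68% of all windows and in those of HLA-B, B2M, TAP1 and TAPBP. The letters of each motif were chosen with these sequences known, so the counts over members are a description.

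Levels are given as CPM scaled with edgeR's TMM factors, in the order of replicates 1, 2 and 3. A gene passed the test at an edgeR adjusted p of at most 0.05, and it was called when its log2 fold change was also at least 1 in size. Of all 19254 genes tested, 21.0% passed as higher and 19.8% as lower in shAC007128.1, and 5.57% and 10.1% were called higher and lower. In either direction 40.8% passed and 15.7% were called. Among the 9 members 1 passed as higher, 1 passed as lower and 0 were called, so 2 of 9 passed, a smaller share than over all genes. The median log2 fold change was -0.11 over the members and -0.02 over all genes tested.

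**Figure D1:**
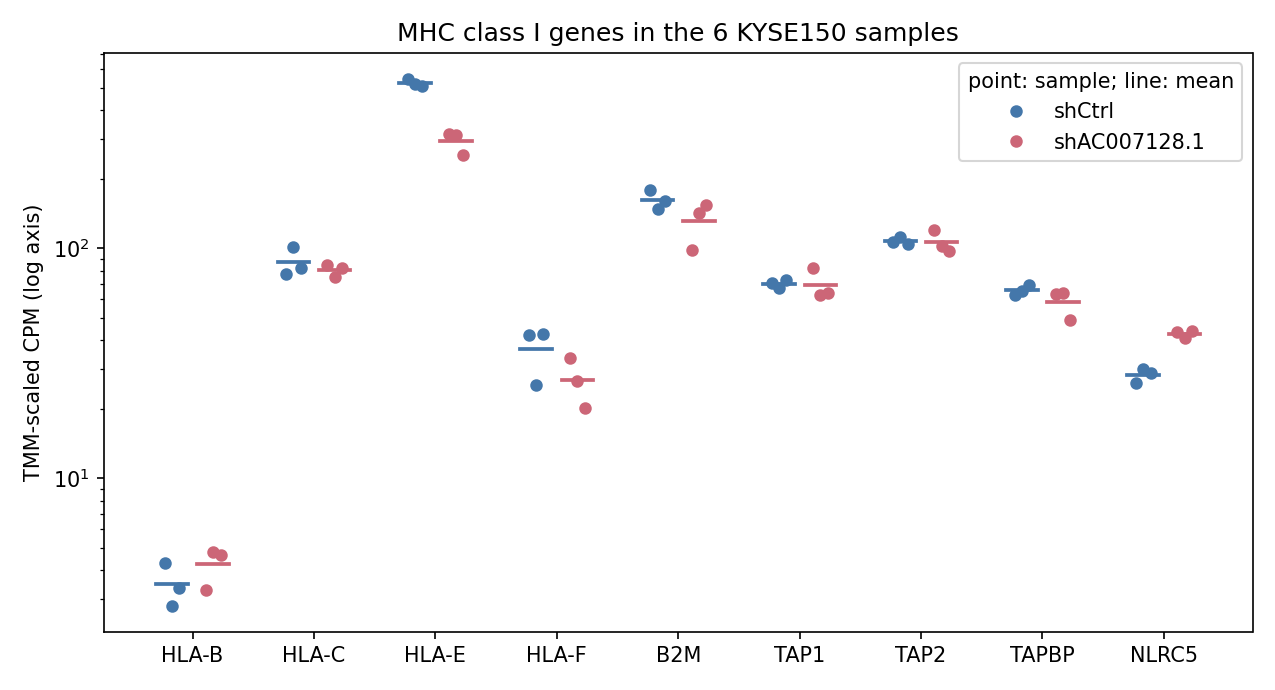
TMM-scaled CPM of each member (log axis) in the 3 shCtrl and 3 shAC007128.1 samples of KYSE150, with a point for each sample and a line at each group's mean. HLA-E is lower and NLRC5 higher in all 3 shAC007128.1 samples, and the samples of the 2 groups overlap for the other 7 genes.

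HLA-E (ENSG00000204592, hg38 chromosome 6, 30489509 to 30494194, plus strand) had the highest level of the set. It was measured at 543, 518 and 509 CPM in shCtrl and at 313, 311 and 253 CPM in shAC007128.1. The highest shAC007128.1 value was under the lowest shCtrl value, as the samples of 55.2% of all tested genes were separated one way or the other. The mean fell from 524 ± 17.7 CPM (SD, n = 3) to 293 ± 34.1 CPM (n = 3). The log2 fold change was -0.84 (SE 0.09, 95% interval -1.06 to -0.62, edgeR adjusted p = 0.000488). In bulk RNA a lower level in all cells and a smaller number of expressing cells cannot be told apart. HLA-E shares no exonic base with another annotated gene, and 0.6% of the 100-base stretches of its canonical transcript also occur in other genes. By log2 fold change, 18.2% of tested genes lay below HLA-E.

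HLA-C (ENSG00000204525, chromosome 6, 31268749 to 31272130, minus strand), a ligand of killer immunoglobulin-like receptors, was at 77.5, 102 and 82.3 CPM in shCtrl. It was at 84.6, 75.4 and 82.5 CPM in shAC007128.1. The groups overlapped, with shCtrl replicate 2 the highest and shAC007128.1 replicate 2 the lowest of the 6. The log2 fold change was -0.11 (SE 0.12, edgeR adjusted p = 0.495), and its 95% interval ran from -0.38 to 0.16. The lower end of that interval stayed above the upper end of the interval of HLA-E.

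HLA-B (ENSG00000234745, chromosome 6, 31353872 to 31367067, minus strand) was at 4.28, 2.80 and 3.33 CPM in shCtrl and at 3.27, 4.77 and 4.66 CPM in shAC007128.1. These levels rested on 184 to 313 counts a sample, and the groups overlapped. HLA-B had a log2 fold change of 0.29 (SE 0.23, 95% interval -0.26 to 0.84, edgeR adjusted p = 0.371). The value is uncertain beyond its interval, because 47.3% of the exonic bases of HLA-B overlap other annotated genes, among them DHFRP2. Of the 100-base stretches of its transcript, 12.0% also occur in transcripts of other genes on either strand. That share includes genes that overlap HLA-B, so it does not measure repeated sequence alone. The reads were mapped to 1 reference sequence, and the alleles of the line were not analysed here.

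HLA-F (ENSG00000204642, chromosome 6, 29722775 to 29738528, plus strand) was at 42.2, 25.4 and 42.3 CPM in shCtrl and at 33.3, 26.5 and 20.3 CPM in shAC007128.1. It varied most among replicates of all 9 members, with a coefficient of variation of 26.4% in shCtrl and 24.3% in shAC007128.1. HLA-F had a log2 fold change of -0.46 (SE 0.24, 95% interval -1.03 to 0.12, edgeR adjusted p = 0.182). Its exons overlap genes on the opposite strand, including HLA-F-AS1, over 28.0% of their bases, and reads of the 2 strands cannot be told apart if strand was not used in counting. Of the 100-base stretches of its transcript 24.4% also occur in transcripts of other genes on either strand. That share includes genes that overlap HLA-F, so it does not measure repeated sequence alone.

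B2M (ENSG00000166710, chromosome 15, 44711358 to 44718851, plus strand), the light chain of every class I molecule, was at 179, 148 and 161 CPM in shCtrl. It was at 98.5, 143 and 154 CPM in shAC007128.1. The groups overlapped because shAC007128.1 replicate 3 lay above shCtrl replicate 2, while shAC007128.1 replicate 1 was the lowest of the 6. The log2 fold change was -0.30 (SE 0.17, 95% interval -0.70 to 0.09, edgeR adjusted p = 0.191), and it was -0.13 without shAC007128.1 replicate 1. With a correction for GC content it was -0.52 and passed the test (edgeR adjusted p = 0.0201), but the same correction with the replicate number as a block gave -0.53 and did not pass (edgeR adjusted p = 0.056). The transcript of B2M has a GC content of 39.1%, against 48.9% to 60.1% for the other 8.

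The transporter genes TAP1 (ENSG00000168394, chromosome 6, 32845209 to 32853816, minus strand) and TAP2 (ENSG00000204267, chromosome 6, 32821833 to 32838739, minus strand) encode the 2 subunits of 1 transporter. TAP1 was at 70.4, 67.0 and 72.8 CPM in shCtrl and at 82.1, 62.8 and 63.8 CPM in shAC007128.1. TAP2 was at 107, 113 and 105 CPM in shCtrl and at 120, 103 and 97.0 CPM in shAC007128.1. In both genes shAC007128.1 replicate 1 was the highest of the 6 samples, and another shAC007128.1 sample was the lowest. The log2 fold change of TAP1 was -0.01 (SE 0.12, 95% interval -0.29 to 0.27, edgeR adjusted p = 0.956). That of TAP2 was -0.02 (SE 0.10, 95% interval -0.24 to 0.20, edgeR adjusted p = 0.878). Other annotated genes overlap 14.2% of the exonic bases of TAP1 and 19.5% of those of TAP2. Of the 100-base stretches of their transcripts, 18.6% and 34.7% also occur in transcripts of other genes on either strand. These shares include the overlapping genes, so they do not measure repeated sequence alone.

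TAPBP (ENSG00000231925, chromosome 6, 33299694 to 33314284, minus strand) encodes tapasin, which bridges the transporter and the empty heavy chain. It was at 62.8, 65.3 and 69.5 CPM in shCtrl and at 63.0, 64.3 and 48.7 CPM in shAC007128.1. Only shAC007128.1 replicate 3 lay below all shCtrl samples. TAPBP had a log2 fold change of -0.17 (SE 0.12, 95% interval -0.45 to 0.12, edgeR adjusted p = 0.313). A gene on the opposite strand covers 21.0% of its exonic bases. Of the 100-base stretches of its transcript, 38.7% also occur in transcripts of other genes on either strand. That share includes the overlapping gene, so it does not measure repeated sequence alone.

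NLRC5 (ENSG00000140853, chromosome 16, 56989485 to 57083531, plus strand), the class I transactivator, moved the other way from HLA-E. It was at 26.0, 29.8 and 28.6 CPM in shCtrl and at 43.2, 40.7 and 43.8 CPM in shAC007128.1. All 3 shAC007128.1 values exceeded the shCtrl values. The mean rose from 28.1 ± 1.97 CPM (SD, n = 3) to 42.6 ± 1.65 CPM (n = 3), with a log2 fold change of 0.60 (SE 0.09, 95% interval 0.38 to 0.81, edgeR adjusted p = 0.00188). It shares no exonic base with another gene, and none of the 50-base stretches of its transcript was found in other genes. By log2 fold change, 81.1% of tested genes lay below NLRC5.

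**Figure D2:**
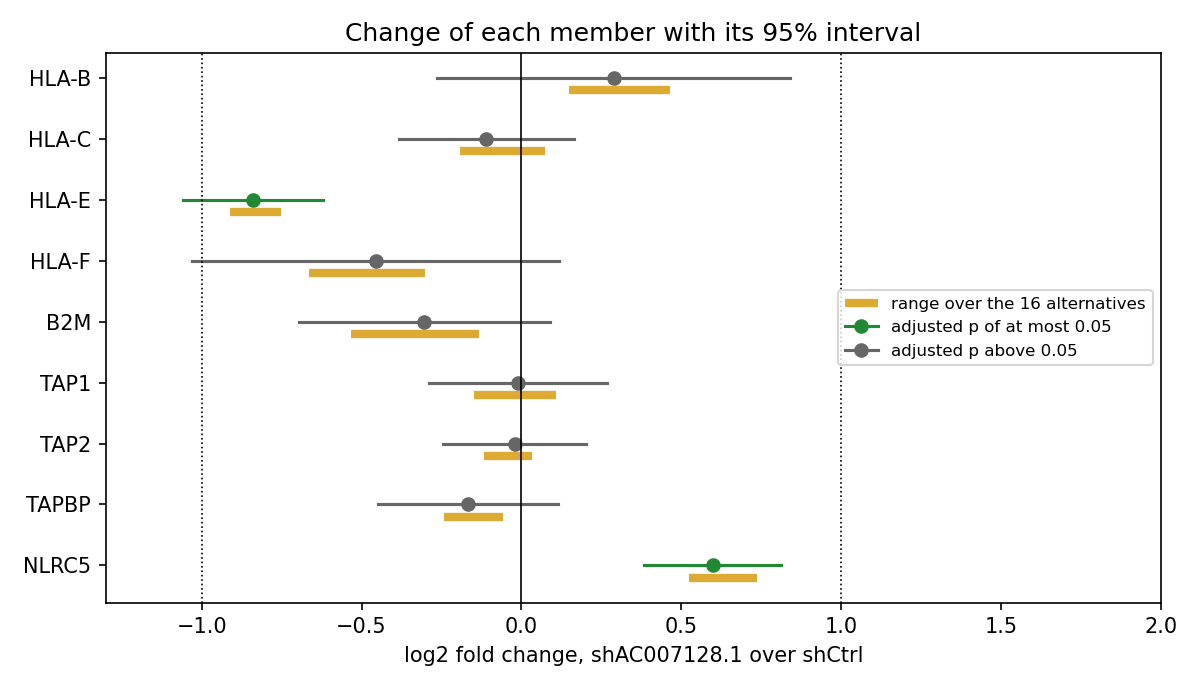
Log2 fold change of each member, shAC007128.1 over shCtrl, from edgeR (point) with its 95% interval (thin line) and the range over the 16 alternative settings (thick bar). Dotted lines stand at the fold limit of 1 in size, and the intervals of HLA-E (-1.06 to -0.62) and NLRC5 (0.38 to 0.81) are the ones that do not reach 0.

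Counts of a pair of genes within a sample give a difference that does not rest on scaling between libraries. These pairs were chosen after the values were seen. The count ratio of HLA-E to NLRC5 was 20.9, 17.4 and 17.8 in shCtrl and 7.25, 7.65 and 5.78 in shAC007128.1. The ratio of HLA-E to HLA-C was 7.01, 5.09 and 6.19 in shCtrl and 3.71, 4.13 and 3.07 in shAC007128.1. Neither ratio overlapped between the groups, and the means differed by -1.44 and -0.74 on the log2 scale. The ratio of HLA-E to B2M was 3.03, 3.49 and 3.17 in shCtrl and 3.18, 2.18 and 1.65 in shAC007128.1, which overlapped. The two-sided exact permutation test gave p = 0.1, 0.1 and 0.3 for these 3 ratios, and with 3 samples against 3 it cannot give less than 0.1.

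To compare levels between genes, CPM were divided by the length of all exonic bases of a gene in kilobases (kb). On this scale HLA-E was highest in shCtrl at 179 CPM per kb. It was followed by B2M at 52.1, HLA-C at 34.8, TAP1 at 14.8, TAP2 at 10.4, TAPBP at 9.91, HLA-F at 8.49, NLRC5 at 2.27 and HLA-B at 0.750 CPM per kb. Of the neighbours in that order, TAP2 and TAPBP overlapped over the samples, and so did TAPBP and HLA-F. In shAC007128.1 the order of the means was the same, from HLA-E at 100.2 CPM per kb to HLA-B at 0.916 CPM per kb, and there B2M and HLA-C overlapped as well. HLA-C was 33.4 to 67.1 times HLA-B per exonic kb in the shCtrl samples and 29.2 to 47.6 times in the shAC007128.1 samples. Per kb of canonical transcript these ratios were 18.1 to 36.3 and 15.7 to 25.7. The limits given above for HLA-B hold for these ratios and for its share below. The alleles of HLA-C were not analysed either.

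The order depended in part on the length used. Divided by the length of the canonical transcript, HLA-E was at 205 and B2M at 173 CPM per kb in shCtrl. In shAC007128.1, B2M was at 140 and HLA-E at 115 CPM per kb on that scale, and their samples overlapped. HLA-F came above TAP2 and TAPBP in shCtrl, at 24.7 against 19.2 and 19.1 CPM per kb, and above TAPBP in shAC007128.1, with overlapping samples in each case.

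The 4 heavy chains were also set against each other within each sample, as shares of their summed counts per exonic kb. HLA-E held 81.7%, 79.0% and 80.1% of the sum in shCtrl and 71.8%, 74.1% and 69.2% in shAC007128.1. HLA-C held 13.6%, 18.1% and 15.1% in shCtrl and 22.6%, 20.9% and 26.3% in shAC007128.1. The share of HLA-E was lower and that of HLA-C higher in all 3 shAC007128.1 samples, although the level of HLA-C itself overlapped between the groups.

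The mean share of HLA-E was 80.3% ± 1.36 (SD, n = 3) in shCtrl and 71.7% ± 2.46 (n = 3) in shAC007128.1, a difference of -8.57 percentage points (two-sided exact permutation p = 0.1). That of HLA-C was 15.6% ± 2.30 (n = 3) and 23.2% ± 2.74 (n = 3), a difference of 7.65 points (exact permutation p = 0.1). The share of HLA-B was 0.336% ± 0.0687 (n = 3) and 0.665% ± 0.171 (n = 3), also without overlap (exact permutation p = 0.1). The share of HLA-F differed by 0.589 points (exact permutation p = 0.6). The smallest p that this design allows is 0.1. The shares of a sample add up to the whole, so a lower share of HLA-E means a higher sum of the other shares. The tests of HLA-C and HLA-B are therefore not independent of that of HLA-E.

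**Figure D3:**
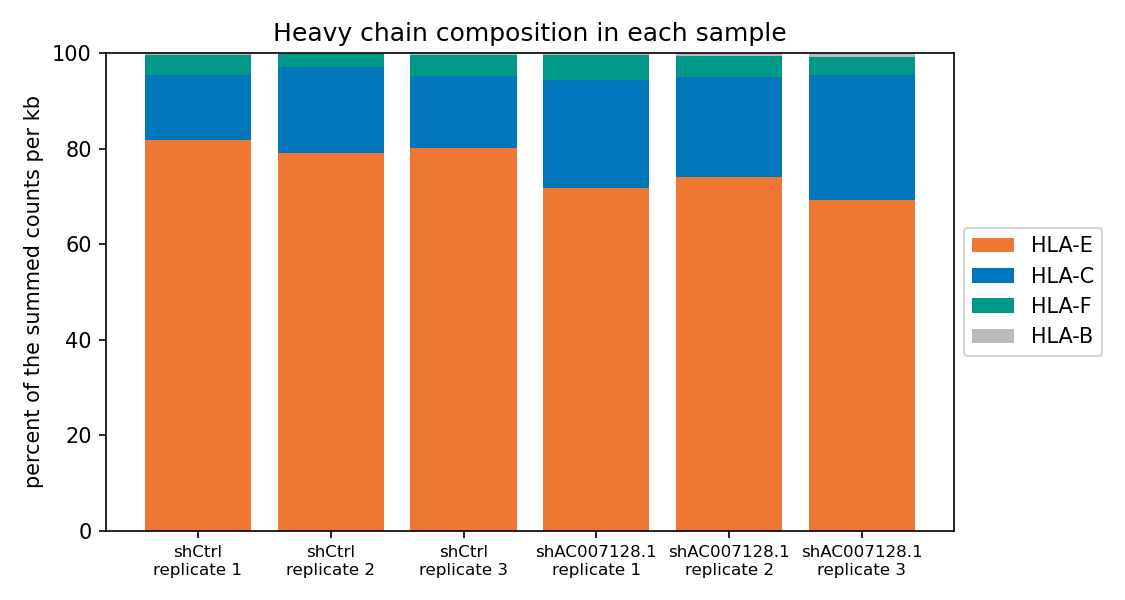
Shares of HLA-E, HLA-C, HLA-F and HLA-B in their summed counts per exonic kb (percent), as a stacked bar for each of the 6 samples. HLA-E holds 79.0% to 81.7% in the shCtrl samples and 69.2% to 74.1% in the shAC007128.1 samples, and HLA-C takes most of the remainder in each.

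B2M pairs with every heavy chain, so its level was divided by the sum of the 4 heavy chains per exonic kb. This ratio was 0.253, 0.212 and 0.236 in shCtrl and 0.211, 0.319 and 0.393 in shAC007128.1. The shAC007128.1 samples lay on both sides of the shCtrl range, and the means of 0.234 ± 0.0205 and 0.308 ± 0.0916 (SD, n = 3 each) did not differ beyond that spread (exact permutation p = 0.4).

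The other genes of peptide loading and trimming were covered by a list of 14. Of these 3 passed as higher and 4 as lower, of which 1 and 2 were called, and the median log2 fold change was -0.25. Over all genes tested the shares were 21.0% and 19.8% passing, and 5.57% and 10.1% called. The 3 general endoplasmic reticulum chaperones of the loading pathway were all lower. CANX, the calnexin that holds new heavy chains, was at 1864, 1889 and 1803 CPM in shCtrl and at 482, 496 and 575 CPM in shAC007128.1. The groups were far apart, with a log2 fold change of -1.84 (SE 0.08, edgeR adjusted p = 1.73e-05).

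CALR, the calreticulin of the loading complex, was at 788, 763 and 782 CPM in shCtrl and at 510, 475 and 383 CPM in shAC007128.1. Its log2 fold change was -0.77 (SE 0.10, edgeR adjusted p = 0.00114). PDIA3, the disulfide isomerase ERp57 that joins tapasin, was at 606, 594 and 524 CPM in shCtrl and at 417, 380 and 431 CPM in shAC007128.1, with a log2 fold change of -0.49 (SE 0.08, edgeR adjusted p = 0.00281). Neither gene had overlapping groups.

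Of the trimming peptidases 1 fell and 2 rose. ERAP1, which shortens peptides inside the endoplasmic reticulum, fell from 34.1, 34.9 and 40.0 CPM in shCtrl to 15.3, 16.3 and 17.6 CPM in shAC007128.1 (log2 fold change -1.15, SE 0.11, edgeR adjusted p = 0.000245). ERAP2, its partner, had a log2 fold change of -0.37 and did not pass (edgeR adjusted p = 0.0663). The cytosolic peptidase NPEPPS rose from 103 ± 1.06 to 187 ± 18.4 CPM (SD, n = 3 each), with a log2 fold change of 0.86 (edgeR adjusted p = 0.00031). The endosomal peptidase LNPEP rose from 62.7 ± 2.38 to 119 ± 10.8 CPM (SD, n = 3 each), with a log2 fold change of 0.93 (edgeR adjusted p = 0.000259). GANAB, the glucosidase subunit that trims glycans for calnexin binding, rose from 219 ± 5.12 to 535 ± 61.0 CPM (log2 fold change 1.29, edgeR adjusted p = 8.09e-05).

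Of the 5 genes of the immunoproteasome and its activators, 1 rose and 1 fell, 0 were called, and the median was -0.02. The shares over all genes tested were 21.0% higher and 19.8% lower, with 15.7% called. PSMB9, a catalytic subunit, was at 22.2, 22.2 and 18.7 CPM in shCtrl and at 14.8, 12.4 and 9.70 CPM in shAC007128.1 (log2 fold change -0.77, SE 0.17, edgeR adjusted p = 0.01). PSMB8, another catalytic subunit, was at 19.3, 21.7 and 21.6 CPM in shCtrl and at 26.0, 33.0 and 27.6 CPM in shAC007128.1 (log2 fold change 0.47, SE 0.12, edgeR adjusted p = 0.0183). The 2 genes moved apart, each with separated groups, but PSMB8 did not pass without shAC007128.1 replicate 2, shCtrl replicate 1 or shCtrl replicate 3 (edgeR adjusted p = 0.057, 0.0756 and 0.0525). PSMB10, the remaining inducible catalytic subunit, had a log2 fold change of -0.02, and the activator subunits PSME1 and PSME2 had values of -0.16 and 0.06. None of these 3 passed (edgeR adjusted p = 0.925, 0.216 and 0.552).

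PSMB9 lies head to head with TAP1 across a shared promoter region. The ratio of PSMB9 to TAP1 counts was 0.315, 0.331 and 0.257 in shCtrl and 0.181, 0.198 and 0.152 in shAC007128.1. The ratio of PSMB9 to PSMB8 counts was 1.15, 1.02 and 0.868 in shCtrl and 0.570, 0.377 and 0.352 in shAC007128.1. Both ratios were lower in all 3 shAC007128.1 samples (log2 differences -0.77 and -1.25, two-sided exact permutation p = 0.1 for each).

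In the constitutive proteasome list of 5 genes, 4 rose and 1 fell, with a median of 0.84. Over all genes tested 21.0% rose and 19.8% fell by the same test. PSMB6, a catalytic subunit that PSMB9 replaces, rose from 57.1 ± 2.48 to 137 ± 25.4 CPM (SD, n = 3 each), with a log2 fold change of 1.26 (edgeR adjusted p = 0.000475). PSMB5, which PSMB8 replaces, was at 65.5, 65.6 and 66.6 CPM in shCtrl and fell to 47.9, 28.6 and 29.2 CPM in shAC007128.1 (log2 fold change -0.90, edgeR adjusted p = 0.00954). In both of these exchangeable pairs the constitutive and the inducible subunit moved in opposite directions, and the direction differed between the pairs. PSMB8 did not pass without some single samples, as given above. The remaining pair, PSMB7 and PSMB10, did not show this pattern, since PSMB10 did not pass (log2 fold change -0.02, edgeR adjusted p = 0.925). PSMB7 and the activator gene PSME4 also rose, with log2 fold changes of 0.56 and 0.84 (edgeR adjusted p = 0.00113 and 0.00122). PSME3 rose by 0.89 with overlapping groups (edgeR adjusted p = 0.0301), and it did not pass without shAC007128.1 replicate 1 or 2 or shCtrl replicate 2 or 3 (edgeR adjusted p = 0.0877, 0.0909, 0.102 and 0.089) or with no filter (0.0511).

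**Figure D4:**
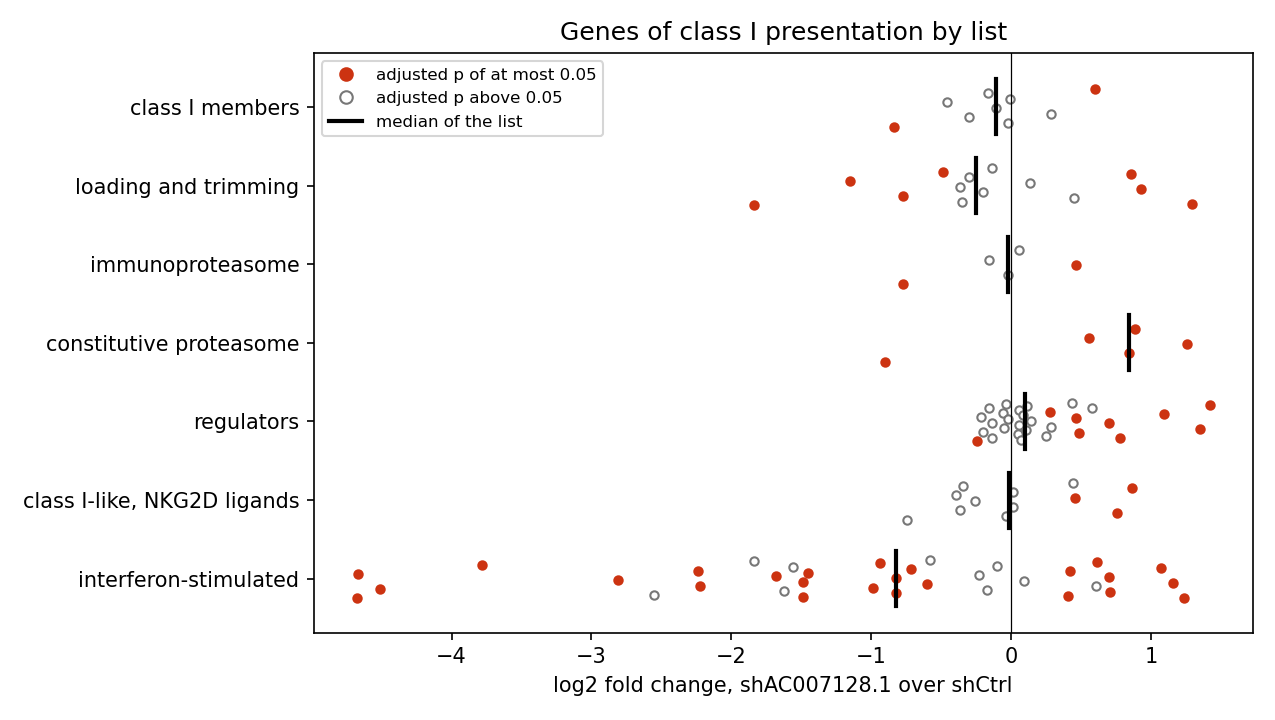
Log2 fold change, shAC007128.1 over shCtrl, of every tested gene in the class I set and in 6 lists of related genes, with filled points for an edgeR adjusted p of at most 0.05, open points above it and a black line at each list's median. The class I members spread from -0.84 to 0.60 around a median of -0.11, and the interferon-stimulated list has the lowest median of those drawn, at -0.82.

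Regulators of class I transcription were covered by 30 genes. Of these 8 rose and 1 fell, 3 were called higher and 0 lower, and the median was 0.10. The shares over all genes tested were 21.0% and 19.8%, and 5.57% and 10.1% for calls. Of the factors that bind class I promoters, RFX5 and IRF1 were among those that did not pass, while IRF2 passed with the limits given below. IRF9 and NFYB were just above the limit (log2 fold change 0.57 and 0.43, edgeR adjusted p = 0.0504 and 0.0532). Both were higher in every shAC007128.1 sample than in any shCtrl sample. RFX5, a subunit of the RFX complex that works with NLRC5, had a log2 fold change of 0.10 (edgeR adjusted p = 0.391). IRF1 had a log2 fold change of -0.14 (95% interval -0.39 to 0.12, edgeR adjusted p = 0.362). CIITA, the class II counterpart of NLRC5, was at 1.69 CPM in shCtrl and 2.06 CPM in shAC007128.1 and did not pass (edgeR adjusted p = 0.623).

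The 3 called regulators were EZH2, SOCS3 and IFNAR1. EZH2, the methyltransferase of Polycomb repressive complex 2, was at 23.2, 26.3 and 22.3 CPM in shCtrl and at 53.3, 59.6 and 70.4 CPM in shAC007128.1 (log2 fold change 1.35, SE 0.13, edgeR adjusted p = 0.000238). SOCS3, a feedback inhibitor of JAK signalling, was at 25.6, 22.3 and 29.3 CPM in shCtrl and at 79.2, 75.4 and 51.9 CPM in shAC007128.1 (log2 fold change 1.42, SE 0.18, edgeR adjusted p = 0.000873). IFNAR1, a chain of the type I interferon receptor, was at 32.5, 31.4 and 25.6 CPM in shCtrl and at 51.3, 67.1 and 72.8 CPM in shAC007128.1 (log2 fold change 1.10, SE 0.16, edgeR adjusted p = 0.00139). All 3 were higher in every shAC007128.1 sample than in any shCtrl sample, and 55.2% of all tested genes were separated one way or the other. IFNAR1 passed the test but was under the fold limit with GC content correction (0.96), without shAC007128.1 replicate 3 (0.98) and without shCtrl replicate 3 (0.99).

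Smaller rises were seen for STAT3 (log2 fold change 0.78, edgeR adjusted p = 0.000137) and the kinase gene JAK2 (0.70, adjusted p = 0.00506). STAT2, IRF2 and the kinase gene TYK2 rose by 0.49, 0.47 and 0.28 on the log2 scale, and the NF-κB subunit gene RELA fell by 0.25. Their edgeR adjusted p-values were 0.0169, 0.02, 0.0295 and 0.0328, and each was lost when single libraries were left out. STAT2 did not pass without shAC007128.1 replicate 2, shCtrl replicate 2 or shCtrl replicate 3 (0.0502, 0.0703 and 0.0591). IRF2 did not pass without shAC007128.1 replicate 2, shCtrl replicate 1 or shCtrl replicate 3 (0.062, 0.0788 and 0.0782). For RELA the libraries were shAC007128.1 replicate 2 and each of the shCtrl samples, with values between 0.06 and 0.109. With GC content correction RELA had a log2 fold change of -0.10 and did not pass (edgeR adjusted p = 0.168). For TYK2 they were every library but shAC007128.1 replicate 3, with values between 0.0687 and 0.125. TYK2 also did not pass by DESeq2 (0.0834), with library size only (0.0922) or with no filter (0.0879). With no filter IRF2 did not pass either (0.0614).

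Interferon-stimulated genes, which respond to the same signals as the class I genes, had 35 tested of 40 in the table. Of these 8 rose and 17 fell, 3 were called higher and 11 lower, with a median of -0.82. Over all genes tested 21.0% rose and 19.8% fell, and 5.57% and 10.1% were called. With at least 10 counts required in every sample, 26 genes of the list were tested, 7 were called lower and their median was -0.44. The lowest p-values among those called lower belonged to RSAD2 (viperin), HERC5, OASL, IFITM1 and IFIT3. RSAD2 was at 4.84, 4.92 and 4.50 CPM in shCtrl and at 0.142, 0.255 and 0.224 CPM in shAC007128.1 (log2 fold change -4.51, edgeR adjusted p = 4.26e-05). OASL was at 17.8, 20.6 and 16.6 CPM in shCtrl and at 4.20, 3.57 and 4.03 CPM in shAC007128.1 (log2 fold change -2.22, edgeR adjusted p = 5.74e-05). The log2 fold changes of HERC5, IFITM1 and IFIT3 were -4.67, -4.68 and -1.49 (edgeR adjusted p = 5e-05, 0.000112 and 0.000194).

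The 3 called higher were PARP9, SAMD9 and GBP3. SAMD9, an antiviral gene, was at 131, 135 and 128 CPM in shCtrl and at 271, 286 and 370 CPM in shAC007128.1 (log2 fold change 1.23, edgeR adjusted p = 0.000284). PARP9 and GBP3, the latter a guanylate-binding protein, had log2 fold changes of 1.15 and 1.07 (edgeR adjusted p = 0.000238 and 0.000456). With a correction for GC content 1 was called higher, since SAMD9 and GBP3 then had values of 0.95 and 0.93 and still passed the test. GBP3 was also under the fold limit, at 0.98, without shCtrl replicate 3.

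Among 12 tested class I-like genes and ligands of the activating receptor NKG2D, 3 rose, 0 fell and 0 were called, with a median of -0.01. All 3 were NKG2D ligands, and 21.0% of all genes tested passed as higher. MICB, another ligand of this receptor, had a log2 fold change of 0.44 and did not pass (edgeR adjusted p = 0.304). MICA was at 28.4, 26.4 and 29.7 CPM in shCtrl and at 53.7, 48.2 and 41.1 CPM in shAC007128.1 (log2 fold change 0.76, SE 0.12, edgeR adjusted p = 0.00212). ULBP2 was at 14.2, 11.6 and 13.4 CPM in shCtrl and at 22.8, 24.3 and 24.2 CPM in shAC007128.1 (log2 fold change 0.86, SE 0.11, edgeR adjusted p = 0.00103). HLA-E, a ligand of an inhibitory receptor of natural killer cells, was lower in the same libraries in which MICA and ULBP2 were higher. A link between these changes was not tested. ULBP3 rose by 0.46 (edgeR adjusted p = 0.0427) but did not pass without shAC007128.1 replicate 1 or 3 or shCtrl replicate 1 or 3 (edgeR adjusted p = 0.103, 0.0943, 0.144 and 0.134), nor with library size only (0.0748) or no filter (0.116).

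MHC class II transcripts were low. Their summed level was 5.19 to 5.63 CPM in shCtrl and 3.85 to 4.50 CPM in shAC007128.1, and 3 counts equal 0.0373 to 0.0546 CPM. Of 11 genes, 8 stayed under 1 CPM in every sample and 3 of these were at 0 in all 6. Of the 6 genes tested, 1 was called lower, and 10.1% of all genes tested were. That gene was HLA-DPA1, a class II chain, with 21, 18 and 12 counts in shCtrl and 0 in each shAC007128.1 sample.

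Most members lie in the MHC region of chromosome 6. Of its other protein-coding genes, 121 were tested. Among these, 19 passed as higher and 37 as lower, 6 and 18 were called, and the median log2 fold change was -0.22, against -0.02 over all genes. Of all genes tested, 21.0% passed as higher and 19.8% as lower, and 5.57% and 10.1% were called.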

How the data were processed

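Per the labels, 3 shCtrl and 3 shAC007128.1 samples of KYSE150 were sequenced after TruSeq preparation. The authors cleaned the reads of rRNA, adapters and low-quality bases before mapping with TopHat to hg38. The submitters' processing notes list CASAVA 1.8, TopHat2 2.0.6 and the builds mm10 and GRCh38. The authors deposited a table of estimated counts for each Ensembl gene without normalization, all of them whole numbers. The counting program, its annotation and its use of strand are not given in the sources used here. Low counts in the deposited data pile up at multiples of 4, so the number of reads behind a count is not known. Counts divided by 4 were run as an alternative for this reason. The treatment text names shAC007128.1 for every sample, so groups came from the titles. In the table, 0 sample columns were left unmapped.

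Of 67140 identifiers, 60357 (89.9%) matched GENCODE v44, and the unmatched ones held 0.0701% of counts. Counts were rounded, filtered with filterByExpr and scaled by TMM in edgeR 4.0.16 (R 4.3.3), with factors from 0.967 to 1.042. The quasi-likelihood test was fitted over 19254 genes with Benjamini-Hochberg adjustment, and each standard error is the log2 fold change over the root of F. A call needed an adjusted p no higher than 0.05 and a log2 fold change of 1 or more in size. Shares and ratios were compared by exact permutation tests over samples. Intervals and the limit of 3 counts cover counting or replicate error only.

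The members and the lists of related genes were chosen with earlier results of these data known. Named genes are the members, the called genes of each list (at most 5 a direction, by p) and every gene of the loading, immunoproteasome and regulator lists that passed. The other genes, markers and pairs named were chosen after their values were seen, and some genes of the lists are not reported here. Alternatives were DESeq2 1.42.0 and its size factors, limma-voom (limma 3.58.1), library size only, 2 other filters, counts divided by 4, a replicate block, GC content correction, no fold limit, other lengths and each sample left out. On simulated counts for 19254 genes the edgeR step called 68 of 109 genes changed by 1.5 (log2) and 60 of 91 changed by 2, and 66 of 80 and 56 of 67 of those above 1 CPM. It called 8 unchanged genes.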

Additional observations from a re-analysis of the deposited data

How the results depend on the processing

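HLA-E passed the test in all 16 alternative fits (log2 fold change -0.91 to -0.75), and so did NLRC5 (0.52 to 0.74). Neither passed the fold limit of 1 in any of them. HLA-B (0.15 to 0.46), HLA-F (-0.66 to -0.30, smallest adjusted p 0.0533) and TAPBP (-0.24 to -0.06) passed in none. B2M (-0.53 to -0.13) passed in 1, with GC content correction (-0.52), which made 2 members lower. The sign changed, without passing, for HLA-C with GC content correction (0.0706), the same with the replicate block (0.0735) and without shCtrl replicate 2 (0.0124), and for TAP1 with GC content correction (0.11) and the same with the block (0.10). With each sample left out, HLA-C ranged from -0.19 to 0.0124, TAP1 from -0.15 to 0.0611 and TAP2 from -0.12 to 0.0333. The cause was not tested.

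With no limit on fold change, 4041 genes were higher and 3820 lower, against 1073 and 1945. The members then gave 1 and 1, and the related lists together 27 and 25, against 8 and 14. The related lists gave 9 lower genes where at least 10 counts were required in every sample, a filter that removes genes that fell to near 0. They gave 5 higher genes with GC content correction and 5 with GC content correction and the block. Of the 52 related genes that passed, 37 passed in every setting that tested them. The difference in the share of HLA-B was 0.53 points with no length scaling and 0.705 with the canonical length, which was added after seeing the data. The difference in the share of HLA-F ranged from -0.00126, without shCtrl replicate 2, to 0.936 with samples left out. On the canonical length the share of HLA-E differed by -10.1 points.

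Same-numbered samples did not deviate together (correlations 0.031, -0.025 and -0.03). No pairing was seen in the counts, which cannot show whether the samples were prepared in pairs. With the replicate block 977 genes were called higher and 1692 lower, and HLA-E (-0.84, adjusted p = 0.0021) and NLRC5 (0.60, adjusted p = 0.0106, both edgeR) still passed. Among the related genes named, RELA (0.0675), TYK2 (0.079), ULBP3 (0.0951) and HLA-DPA1 (0.0569) did not pass with the block (edgeR adjusted p), and HLA-DPA1 was not tested with counts divided by 4 or at least 10 counts in every sample. The depth limits HLA-B, with 184 to 313 counts a sample, and the class II genes.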
